A study of Homo sapiens with 4 samples.

Results

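The metallothionein genes MT1A, MT1E, MT1F, MT1G, MT1M, MT1X and MT2A were taken from the mRNA table by gene symbol, 7 genes of 19610, and the FPKM (fragments mapped, scaled for transcript length and for library depth) of their 17 transcripts were summed for each gene in each library. The table holds total RNA of hFOB1.19, a human fetal osteoblast line that divides at its permissive temperature through a temperature-sensitive large T antigen and differentiates at the higher, restrictive temperature. The 4 libraries are the control at day 0, before induction, and the mineralizing cells at differentiation days 3, 6 and 9, with 1 library for each day and no agent added per the labels. The question was which transcripts change as the osteoblasts mineralize, and per the study's methods the cells were moved to the higher temperature for mineralization, so that differentiation and temperature cannot be told apart in any comparison with day 0. The later days share 1 temperature.

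With 1 library for each day, no difference between days has a replicate check and no test was made. A gene was taken as higher or lower when its log2 ratio, after 1 was added to each FPKM, was at least 1 or at most -1 (the 2-fold limit), among the 12859 genes with 1 FPKM or more in at least 1 library. The number of reads behind a gene is not known from FPKM, so no interval can be given. Of the 9 osteoblast markers, 6 reached 1 FPKM, among them the collagen gene COL1A1, with 776.8 to 1974 FPKM, while BGLAP, IBSP and SP7 stayed under 1 FPKM in every library. The 5 markers of leukocytes, epithelium, endothelium, hepatocytes and glia had at most 0.788 FPKM in any library.

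Metallothioneins are small cysteine-rich proteins that bind zinc and copper and, on exposure, cadmium. They buffer free zinc in the cell, and their transcription is raised by metals through the zinc-sensing factor MTF1, which binds metal response elements in their promoters, and also by glucocorticoids, cytokines and oxidative stress. MT2A and the MT1 genes are expressed in many tissues, while MT3 and MT4 are known mainly from brain and from stratified epithelium. In the gene order of RefSeq (GRCh38.p14), all 7 genes lie in 1 cluster on chromosome 16, from MT2A at one end to MT1X at the other, with MT1E, MT1M, MT1A, MT1F and MT1G between them. Because the MT1 copies are near-identical and some have pseudogenes in the cluster, reads could have been divided between them, and the values of single MT1 genes are uncertain to that extent.

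In this line the family was carried by MT2A, whose mRNA was 5.14-fold higher on day 9 than on day 0. MT1E was 1.75-fold higher, within the 2-fold limit, and MT1X had nearly its day 0 value again after a dip on day 3. MT1F was below its day 0 value on day 9, also within the limit. MT1A was near the minimum, MT1G was under it and MT1M was listed at 0 throughout. Thus 5 of the 7 members passed the FPKM minimum. In each library the levels ran, from high to low, MT2A, MT1E, MT1X and MT1F, with MT1A, MT1G and MT1M below them. Whether neighbours in this order differ beyond their spread is not known, as no spread could be measured.

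**Figure D1:**
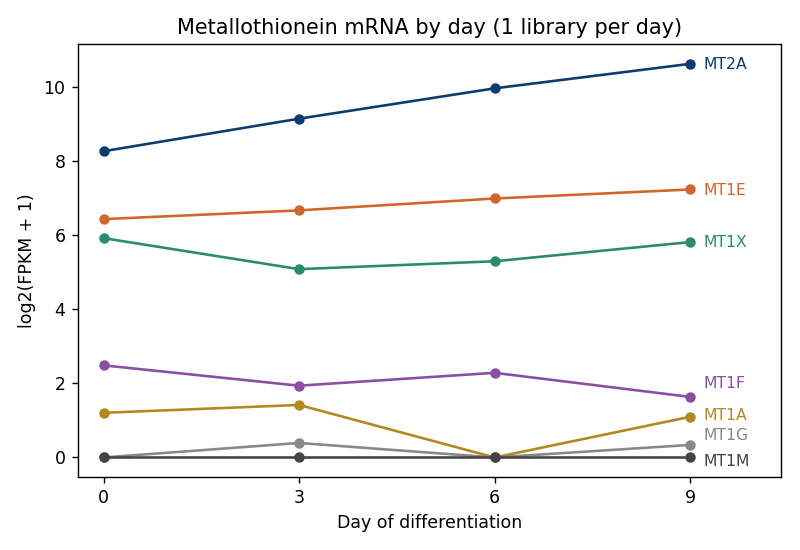
Level of each metallothionein mRNA, as log2(FPKM + 1), against the day of differentiation, with 1 point for each library. MT2A climbs from 307.3 FPKM on day 0 to 1581 on day 9, MT1E lies above MT1X on every day, and MT1M is at 0 in all 4 libraries.

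MT2A, a widely expressed metallothionein, had 307.3 FPKM at day 0 and then 565.8, 998.8 and 1581 FPKM at days 3, 6 and 9. Each library was thus above the one before it. Among the 19610 genes ranked by FPKM, MT2A was the 279th at day 0 and the 126th, the 69th and the 41st at days 3, 6 and 9. Its log2 ratios to day 0 were 0.88, 1.70 and 2.36, so that the 2-fold limit was passed on days 6 and 9. It was passed on day 3 as well (1.08) when the libraries were rescaled to the same FPKM sum. Its location in the authors' files is chromosome 16, 56608198 to 56609497, with no build named beside it. The transcript ENST00000245185 carried between 99.3% and 99.7% of its FPKM, and the other, ENST00000561491, had 1.07, 3.03, 6.61 and 4.91 FPKM from day 0 to day 9.

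Of the 7 members, MT2A and MT1X have an entry in the RefSeq promoter table (GRCh38.p14), and they are the pair whose mRNA levels moved apart most among the abundant members. The 250 bases upstream of each start site were searched on both strands for the core of the metal response element (TGCACNC or TGCGCNC), the AP-1 site (TGACTCA or TGAGTCA), the TATA box (TATAAA) and the GC box (GGGCGG). MT2A held 7 metal response element cores and MT1X held 4. Of 35116 promoters in the table, 24.8% held at least 1 such core, 0.37% at least 4 and 0.0313% at least 7. An AP-1 site, found in 4.2% of promoters, was present once upstream of MT2A and was not found upstream of MT1X. Each of the pair held 1 TATA box, found in 10.7% of promoters, and 2 GC boxes, where 24.3% of promoters held at least 2 and 42.6% at least 1. The only overlap between motifs was one of 2 bases, between the core at -78 and a GC box of MT1X. These are matches of letters, and binding was not measured. Whether the motifs bear on the mRNA levels was not tested, and MT1E, the other abundant member, has no entry.

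The stretches below were chosen because the cores of both genes lie at like distances from the start and because the AP-1 letters differ between the genes. The motif is in capitals, on the gene's strand, which is the plus strand for both genes. The MT2A stretches are chr16:56608420-56608449, chr16:56608469-56608498 and chr16:56608519-56608548, and those of MT1X are chr16:56682309-56682338 and chr16:56682406-56682435.
MT2A, core at -153: gcagagccgggTGCGCCCggcccagtgcgc
MT1X, core at -150: aggccccgcggTGCGCCCggcgctgggctc
MT2A, core at -54: ggcggggctttTGCACTCgtcccggctctt
MT1X, core at -53: ggcggggcctcTGCGCCCggccctcttccc
MT2A, AP-1 site at -104: ggagccgcaagTGACTCAgcgcggggcgtg

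**Figure D2:**
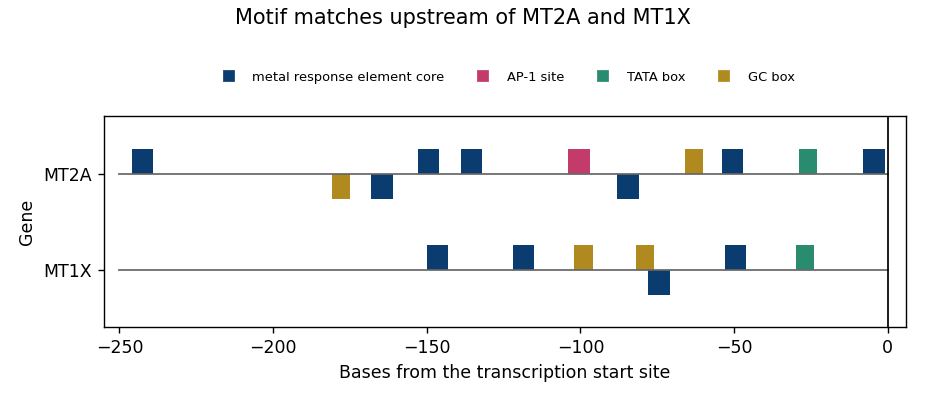
Motif matches in the 250 bases upstream of MT2A and MT1X, against the distance in bases from the transcription start site, drawn above the line for the gene's strand and below it for the other. Boxes of 4 colours stand for the metal response element core, the AP-1 site, the TATA box and the GC box, and the 7 cores of MT2A extend from -246 to -2 while the 4 of MT1X extend from -150 to -47.

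MT1E had 85.5, 100.9, 126.3 and 149.7 FPKM on days 0, 3, 6 and 9. As with MT2A, each library was above the one before, but the log2 ratio to day 0 was 0.24, 0.56 and 0.80 and stayed under the 2-fold limit on all 3 days. Its transcript ENST00000306061 had 67.0 FPKM on day 0 and 111.7 on day 9. The next, ENST00000568293, had 17.0 and 36.7 FPKM, and taken alone it was past the 2-fold limit on day 9. Its part of the gene's FPKM was 19.9% on day 0 and 24.5% on day 9. The third, ENST00000330439, had between 0.821 and 2.03 FPKM.

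MT1X, the last gene of the cluster, had 59.6, 32.9, 38.3 and 55.3 FPKM from day 0 to day 9. The lowest value was thus the first after induction, and the day 9 value was close to that of day 0. Its log2 ratios to day 0 were -0.84, -0.62 and -0.11, under the 2-fold limit, and the day 9 ratio was 0.01 when the libraries were rescaled to the same FPKM sum. MT2A had 5.16 times the FPKM of MT1X at day 0, and 17.2, 26.1 and 28.6 times at days 3, 6 and 9. This ratio is taken within a library and does not depend on the scaling between libraries. MT1E had 1.43, 3.07, 3.30 and 2.71 times the FPKM of MT1X, so the step between these genes lay between day 0 and day 3. One transcript of MT1X, ENST00000394485, carried between 98.0% and 99.5% of its FPKM.

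MT1F had 4.61, 2.83, 3.87 and 2.11 FPKM on days 0, 3, 6 and 9. Day 0 was the highest and day 9 the lowest of its libraries. Its log2 ratios to day 0 were -0.55, -0.20 and -0.85. With 0.1 added to each FPKM in place of 1, the day 9 ratio was -1.09, past the 2-fold limit. Its main transcript, ENST00000334350, had 4.35, 2.25, 3.31 and 1.70 FPKM.

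MT1A had 1.31 and 1.67 FPKM at days 0 and 3, was listed at 0 at day 6 and had 1.14 FPKM at day 9, all of it in ENST00000290705. This listed 0 puts MT1A past the 2-fold limit as lower on day 6, lower between days 3 and 6, and higher between days 6 and 9, and no fold is given against it, since a 0 without read numbers may stand for an estimate that failed. MT1G had 0.312 FPKM at day 3 and 0.265 at day 9 and was listed at 0 in the other libraries. MT1M was listed at 0 in all libraries. Of the 17 transcripts of the 7 genes, 6 were listed at 0 in all libraries and 8 reached 1 FPKM in any.

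Against day 0, 0 members were higher and 0 were lower on day 3, where 8.13% of the 12859 genes were higher and 5.3% were lower. On day 6, MT2A was higher and MT1A, through its listed 0, was lower, where 9.01% of genes were higher and 6.42% lower. On day 9, MT2A was higher and 0 members were lower, with 9.6% and 6.52% of all genes. The median log2 ratio of the 5 members past the minimum was 0.21, -0.20 and -0.11 in the same order, and that of all 12859 genes was -0.08, -0.08 and -0.09. On day 9, 2 of the 5, MT2A and MT1E, had a ratio above 0.

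Summed over the 7 genes, metallothionein mRNA was 458.3, 704.5, 1167 and 1789 FPKM from day 0 to day 9. The sum's log2 ratios to day 0 were 0.62, 1.35 and 1.96, and the day 9 sum was 3.90-fold that of day 0. Reads divided among these copies stay within this sum, except that FPKM is scaled for transcript length. Reads shared with pseudogenes outside the sum could change it, and neither effect was checked. MT2A made up 67.0% of the sum at day 0, and 80.3%, 85.6% and 88.3% at days 3, 6 and 9. MT1E made up 18.7% and 8.37% on days 0 and 9, and MT1X 13.0% and 3.09%. Of the 1331 FPKM by which the day 9 sum exceeded that of day 0, MT2A accounted for 95.7% and MT1E for 4.82%. The family took 0.0742%, 0.131%, 0.214% and 0.314% of all mRNA FPKM in the same order of days.

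**Figure D3:**
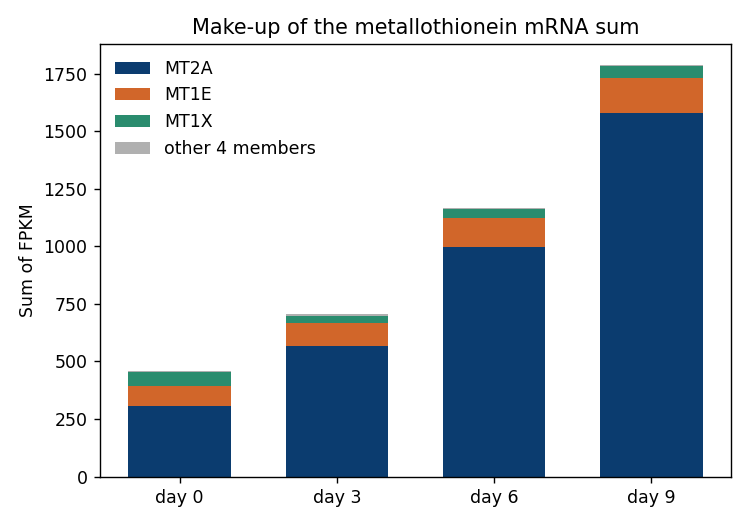
Sum of the FPKM of the 7 metallothionein genes in the library of each day, split into MT2A, MT1E, MT1X and the other 4 members. The sum is 458.3 on day 0 and 1789 on day 9, and nearly all of the difference lies in the MT2A part.

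Without MT2A, the sum was 151.0, 138.7, 168.5 and 208.5 FPKM on days 0, 3, 6 and 9. Its log2 ratio to day 0 was -0.12, 0.16 and 0.46, and the day 3 ratio was 0.08 when the libraries were rescaled to the same FPKM sum. On day 3, therefore, the MT1 genes together were close to day 0 while MT2A was 1.84-fold above it.

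Between days 3, 6 and 9 the temperature was the same, and few genes passed the 2-fold limit. From day 3 to day 6, 0.607% of the 12859 genes were higher and 0.443% lower, and from day 6 to day 9, 0.381% were higher and 0.163% lower. Of the members, MT1A alone passed it in these intervals, through the 0 listed on day 6. MT2A was 1.77-fold higher on day 6 than on day 3 (log2 ratio 0.82) and 1.58-fold higher on day 9 than on day 6 (0.66), under the limit both times. By the size of the log2 ratio MT2A was the 1309th of the 12859 genes from day 0 to day 3, but the 126th from day 3 to day 6 and the 129th from day 6 to day 9. A log2 ratio above 0 in all 3 intervals together was found in 1530 genes, and 16 genes besides MT2A had at least its ratio in every one. MT1E had 0.32 and 0.24 in the later intervals and MT1X had 0.21 and 0.52. MT1F had 0.35 and -0.65.

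The 13 other metallothionein genes and pseudogenes of a list include 5 that the mRNA table holds, and 0 are in the lncRNA table by symbol. MT1B, MT1H, MT1HL1 and MT4 were listed at 0 in every library. MT3, a metallothionein known as a growth inhibitory factor of neurons, was listed at 0 at day 0. It had 0.296, 1.82 and 1.35 FPKM at days 3, 6 and 9, past the 2-fold limit at the last 2. These calls rest on values near the FPKM minimum and on the listed 0. Without read numbers, that 0 may stand for an estimate that failed. MT3 lies beside MT2A in the cluster.

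Of 5 genes that flank the cluster, 0 were past the limit on day 3, 1 was higher on day 6 and 2 on day 9, and 0 were lower. Of all 12859 genes, 8.13%, 9.01% and 9.6% were higher and 5.3%, 6.42% and 6.52% lower at days 3, 6 and 9. On the side of MT2A lie NUDT21, OGFOD1 and BBS2, and on the side of MT1X lie NUP93 and, farther off, HERPUD1. BBS2, a component of the complex that carries cargo to cilia, had 10.96, 21.2, 26.9 and 28.7 FPKM on days 0, 3, 6 and 9, with log2 ratios to day 0 of 0.90, 1.22 and 1.31. When the libraries were rescaled to the same FPKM sum, its day 3 ratio was 1.11, past the limit. HERPUD1, a gene of the unfolded protein response, had 28.7, 42.0, 50.8 and 62.2 FPKM and ratios of 0.54, 0.80 and 1.09. The other 3 were within the limit on every day, and NUP93, a nuclear pore gene, had -0.60, -0.49 and -0.56. The flanking genes' median ratio on day 9 was 0.28 and that of all genes was -0.09.

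Of the genes that sense and carry zinc, MTF1 had 5.78, 3.59, 4.32 and 4.55 FPKM on days 0, 3, 6 and 9. Its log2 ratio was -0.56, -0.35 and -0.29, within the 2-fold limit. SLC30A1, the plasma membrane zinc exporter and itself a target of MTF1, had 8.90 FPKM at day 0 and 21.0, 17.4 and 16.5 FPKM at days 3, 6 and 9. It was thus highest on day 3, where its ratio of 1.16 passed the limit, and had 0.90 and 0.82 later. MT2A was also above its day 0 value on day 3 (ratio 0.88), which was its lowest of the later days. A link between SLC30A1 and MT2A was not tested. When the libraries were rescaled to the same FPKM sum, the day 6 ratio of SLC30A1 was 1.09.

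Of the 10 zinc exporters of the SLC30 family, 7 passed the FPKM minimum, and SLC30A1 on day 3 was the only one higher on any day, with 0 lower. Their median ratio on day 9 was -0.12. Of the 14 zinc importers of the SLC39 family, 11 passed the minimum. Counts of higher importers were 1, 1 and 2 at days 3, 6 and 9, and 0 were lower. The importers' median ratio on day 9 was 0.26. Beside these counts of exporters and importers, 8.13%, 9.01% and 9.6% of all 12859 genes were higher at days 3, 6 and 9. The shares of lower genes were 5.3%, 6.42% and 6.52%. SLC39A10 was higher on all 3 days, with 14.5, 30.5, 33.9 and 31.2 FPKM and ratios of 1.02, 1.17 and 1.05. SLC39A14, an importer of zinc and iron, had 39.0, 43.1, 63.3 and 80.7 FPKM, each library above the one before, and a ratio of 1.03 on day 9. SLC39A8, its closest relative, had 7.38, 8.99, 12.1 and 15.7 FPKM and a day 9 ratio of 0.997, just inside the limit. It passed the limit with 0.1 added (1.08) and with the libraries rescaled to the same sum (1.14). SLC39A11, with 8.23, 12.4, 13.9 and 17.0 FPKM, was also just inside on day 9 (0.97), and no alternative was run for it.

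**Figure D4:**
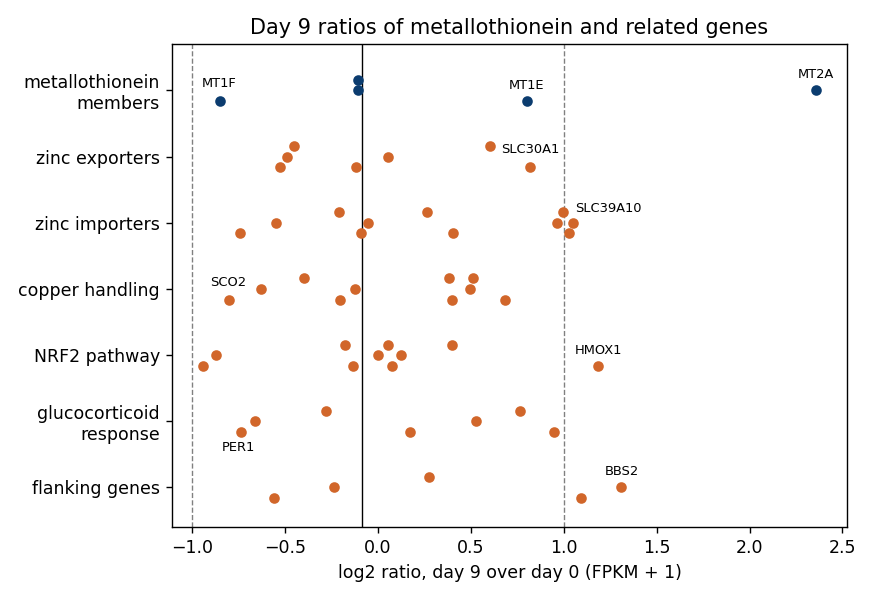
Log2 ratio of day 9 to day 0, after 1 was added to each FPKM, for the 5 metallothionein genes past the FPKM minimum and the genes of 6 lists, with 1 point for each gene. The solid line is the median of all genes (-0.09) and the dashed lines are the 2-fold limit. MT2A, at 2.36, lies to the right of every other gene drawn.

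Of the 10 copper-handling genes, all passed the minimum and 0 were past the 2-fold limit on any of the 3 days. Over all 12859 genes, 8.13%, 9.01% and 9.6% were higher and 5.3%, 6.42% and 6.52% lower on days 3, 6 and 9. The copper chaperone ATOX1 had 159.3 FPKM on day 0 and 210.7 on day 9, and SOD1, the copper-zinc superoxide dismutase, had 130.0 and 185.9. Their day 9 ratios were 0.40 and 0.51.

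The genes with the profile most like that of the family sum were named by the smallest root mean square difference from its 3 log2 ratios to day 0, among 8594 genes with at least 10 FPKM in any library. They were RND3 (difference 0.15), TMEM132A (0.17), RELB (0.18), NPAS2 (0.20) and APOE (0.21), and the next gene also stood at 0.21. The measure rests on 3 ratios that share day 0. RND3 had 67.5, 112.5, 161.1 and 229.0 FPKM on days 0, 3, 6 and 9. RELB, a subunit of NF-kB, had 6.45, 11.2, 22.0 and 25.9 FPKM, and NPAS2, a clock transcription factor, had 3.63, 8.03, 10.9 and 16.1.

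**Figure D5:**
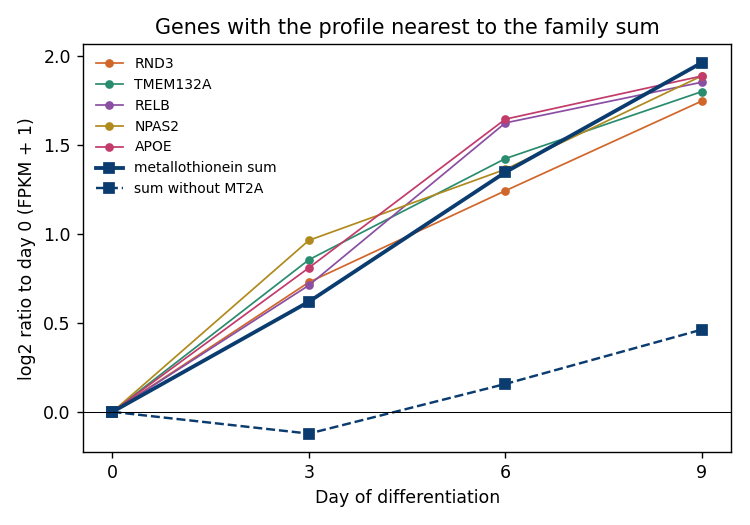
Log2 ratio to day 0, after 1 was added to each FPKM, of the metallothionein sum, of the sum without MT2A and of the 5 genes nearest in profile, against the day of differentiation. The full sum reaches 1.96 on day 9 and the sum without MT2A 0.46.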

How the data were processed

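Total RNA was depleted of ribosomal RNA and made into directional libraries, and paired reads were aligned with TopHat on a Bowtie index, per the study's methods. The labels give RNase R, which degrades linear RNA, as a step of mRNA library making, and its part in these values was not tested. The submitters' processing notes list Bowtie 0.12.2 and the mouse build mm8 for these human samples, while circRNA identifiers of the series name hg38. The program behind the FPKM is not given in the sources used here. The deposited FPKM, made by the authors for each transcript, were summed per gene symbol. Of the deposited comparison tables (fold changes, p-values and q-values), only the gene location, in other columns, was read, and their 18 columns of values per sample were not used. CircRNA counts, which carry no gene names, were not analysed here.

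Log2 ratios, ranks, shares and motif matches were computed in Python 3.11.15 with numpy 2.4.6 and pandas 2.3.3, with matplotlib 3.10.9 for plots. The limit of size was tried on simulated data before use. How the limit performs on these libraries, whose spread is not known, was not tested. The members and gene lists were chosen with earlier results of these data known. Named were all members and their transcripts with at least 1 FPKM in any library, MTF1, SLC30A1, the flanking genes, the 5 nearest profiles (FPKM of at least 10 in any library), list genes past the limit in 1 direction on all 3 days (at most 4 a list) and 1 or 2 others of each list. OSGIN1 was named after its values were seen, and 1 further flanking gene, left out of the list and its counts, is not reported here. Alternatives changed the value added, the scaling, the FPKM minimum, the limit and the transcript level.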

Additional observations from a re-analysis of the deposited data

How the results depend on the processing

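No paired analysis was possible because each day has 1 library, and for the same reason no library could be left out. The log2 ratios of the family sum kept their direction and their side of the 2-fold limit in every comparison with 0.1 added, under either rescaling and with the highest transcript of each gene alone. Counts of members moved as follows. With 0.1 added, 1 member (MT1F) was lower on day 9 instead of 0. With the libraries rescaled to the same FPKM sum, 1 (MT2A) was higher on day 3 instead of 0. This rescaling moved the median log2 ratio of all genes on day 3 from -0.08 to 0.12. A 4-fold limit, stricter by construction, left 0 members higher and 0 lower on day 6, 0 lower from day 3 to day 6 and 0 higher from day 6 to day 9. Per transcript, where transcripts and not genes were counted, 2 were higher on day 6, both of MT2A. On day 9, 3 transcripts were higher, those of MT2A and ENST00000568293 of MT1E.

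Over all genes, the main counts of higher and lower genes were 1046 and 681 (day 3), 1158 and 825 (day 6), 1234 and 838 (day 9), 78 and 57 (day 3 to day 6) and 49 and 21 (day 6 to day 9). In the same order, a 4-fold limit left 214 and 99, 259 and 119, 301 and 133, 9 and 5, and 9 and 4. Per transcript there were 3538 and 3977, 3907 and 4267, 4044 and 4119, 1401 and 1277, and 1260 and 1091. With 0.1 added, the last 2 intervals had 180 and 143, and 116 and 107. Rescaled to the same sum, 1690 were higher on day 3 (77.8% of those past the limit, against 60.6%), 1746 on day 6 (74.7% against 58.4%), and 89 and 51 were lower in the last 2 intervals (56.4% higher against 70.0% from day 6 to day 9). The cause of these shifts was not tested. Of the genes of lists and like profiles, whose alternatives were chosen after the data were seen, PER1 on day 6 (-0.88) and OSGIN1 on day 3 (-0.99) were inside the limit after this rescaling, and also with median ratios (-0.96 and -0.97). Of the single log2 ratios of members and other genes, 11 were inside the limit as reported and past it under at least 1 alternative. Low FPKM, without read numbers, limit what MT1A, MT1G, MT1M and MT3 can show.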

Other observations

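Oxidative stress and glucocorticoids can raise metallothionein transcription. Of the 10 genes of the NRF2 pathway, the response to oxidative and electrophilic stress, all passed the FPKM minimum. Of these, 1 was higher, on day 9, and counts of lower genes were 2, 1 and 0 at days 3, 6 and 9. Of all 12859 genes, 8.13%, 9.01% and 9.6% were higher and 5.3%, 6.42% and 6.52% lower on the same days. The gene higher on day 9 was HMOX1, the heme oxygenase, with 7.39, 6.999, 11.2 and 18.1 FPKM on days 0, 3, 6 and 9 and a log2 ratio of 1.19. SLC7A11, the cystine transporter, had 9.83, 3.64, 4.52 and 4.63 FPKM and ratios of -1.22, -0.97 and -0.94. OSGIN1, the other gene lower on day 3, had ratios of -1.01, -1.11 and -0.87. Its day 3 ratio was inside the limit under both rescalings of the libraries (-0.99 and -0.97). With 0.1 added to each FPKM in place of 1, SLC7A11 (-1.10 on day 6 and -1.07 on day 9) and OSGIN1 (-1.17 on day 9) were also past the limit as lower. The pathway's median ratio on day 9 was 0.03.

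Of the 8 glucocorticoid response genes, 7 passed the minimum, 0 were higher on any day, and PER1 was lower on days 3 and 6. Over all 12859 genes, 8.13%, 9.01% and 9.6% were higher and 5.3%, 6.42% and 6.52% lower on days 3, 6 and 9. PER1, a clock gene, had 14.0, 4.89, 6.46 and 8.02 FPKM and ratios of -1.35, -1.01 and -0.73. Its day 6 ratio was inside the limit under both rescalings (-0.88 and -0.96). NR3C1, the glucocorticoid receptor, had 38.8, 65.5, 64.3 and 56.4 FPKM and ratios of 0.74, 0.71 and 0.53, within the limit. The list's median ratio on day 9 was 0.17, against -0.09 over all genes.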
